A study of Homo sapiens with 5 samples.

Results

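The genes described here are 42 that encode the enzymes and binding proteins of DNA methylation and the subunits of the polycomb complexes, chosen by symbol from the 57905 genes with counts. All 42 had reads in every library, from 57 to 9532 reads per gene and library, and all 42 passed the filter on low counts that left 15500 genes for testing. RNA was sequenced from SVG-10B1 cells, a long-established astroglial line of human origin, and from clones of it with the genotype IDH1 R132H/WT, in which 1 allele of IDH1 carries the R132H substitution. There were 2 wild-type libraries (replicates 1 and 2, which the labels number as clone 1), 1 library of edited clone 2 and 2 libraries of edited clone 6 (replicates 1 and 2). All cells were grown in DMEM with fetal calf serum, and no other agent is named in the labels. The labels name the lines only by these clone numbers. With a single unedited line, the edit and differences between clones cannot be told apart.

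DNA methylation is set by de novo methyltransferases, copied to the new strand at replication by a maintenance methyltransferase, and read by proteins that bind methylated CpG. Polycomb repressive complex 2 (PRC2) methylates histone H3 at lysine 27, and polycomb repressive complex 1 (PRC1) ubiquitinates histone H2A; both act at CpG-rich promoters of silent developmental genes. IDH1 encodes the cytosolic isocitrate dehydrogenase. The R132H enzyme makes 2-hydroxyglutarate, which inhibits dioxygenases such as the TET methylcytosine oxidases and many histone demethylases, and gliomas with this substitution are known for widespread gain of DNA methylation.

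Reads assigned to genes came to between 13572114 and 21881726 per library. Levels are given as CPM (the share of a library's reads, scaled to the same total in each) on library sizes scaled by the trimmed mean of M-values (TMM), and log2 fold changes are edited minus wild type. A gene is called where edgeR's quasi-likelihood test gave a Benjamini-Hochberg adjusted p below 0.05 over all genes tested. IDH1 itself had 119 and 118 CPM in wild type, 111 in clone 2, and 105 and 108 in clone 6 (log2 fold change -0.14, SE 0.08, edgeR adjusted p = 0.285), and gene counts carry no base calls that would show the edit. Of the markers that define astrocytes, AQP4 had 0 reads in every library and GFAP between 5 and 9 reads, and S100B, SLC1A2 and ALDH1L1 were also at or near 0. The less specific markers VIM (586 to 727 CPM), GJA1 (156 to 450 CPM), SLC1A3 (6.90 to 9.85 CPM) and SOX9 (4.49 to 8.32 CPM) were present. GJA1 had 168 and 156 CPM in wild type, 363 in clone 2, and 353 and 450 in clone 6. It was called higher in the edited libraries (log2 fold change 1.26, SE 0.132, edgeR adjusted p = 0.00236). Summed markers of microglia (0.94 to 2.50 CPM), neurons (9.81 to 17.96 CPM) and endothelium (7.86 to 20.95 CPM) were low. Those of fibroblasts and pericytes came to 2140 and 1884 CPM in wild type, 1677 in clone 2, and 1720 and 542 in clone 6. Their part in the results was not tested. In bulk RNA, fewer cells of a type and less RNA per cell cannot be told apart. Nothing in the labels states that replicates came from different cultures, and a p-value here reflects only how far these libraries differ, which may be technical. Clone 2 and clone 6 replicate 1 lay closer together (median coefficient of variation 3.21%) than the wild-type pair (5.03%) or the clone 6 pair (10.87%).

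The comparison of the 3 edited with the 2 wild-type libraries asked which of these genes have another transcript level in edited cells. Transcripts of 6 genes differed. DNMT3A, UHRF1 and EED were lower in the edited libraries, and DNMT3B, MTF2 and PCGF5 were higher. The 6 genes are 14.3% of the 42, beside 18.4% of all genes tested, so calls were no more frequent here than in the transcriptome. The 3 higher genes (7.14%) stand beside 8.27% of all genes, and the 3 lower genes (7.14%) beside 10.2%. The median absolute log2 fold change of the 42 genes was 0.17, against 0.29 over all genes tested. The 42 genes also had higher levels (median 50.5 CPM in wild type, against 19.5 CPM), and these medians were not matched for level. Among the 36 genes without a call, the 95% interval of the fold change lay within 1.5-fold for 28 and within 2-fold for 35. Their log2 fold changes ran from -0.66 to 0.53. The count of 6 was 1 (DNMT3A, 2.38%) when wild-type replicate 1 or replicate 2 was left out, beside 3.12 and 4.34% of all genes. It was 16 (38.1%) without clone 6 replicate 2, beside 38.8% of all genes.

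**Figure D1:**
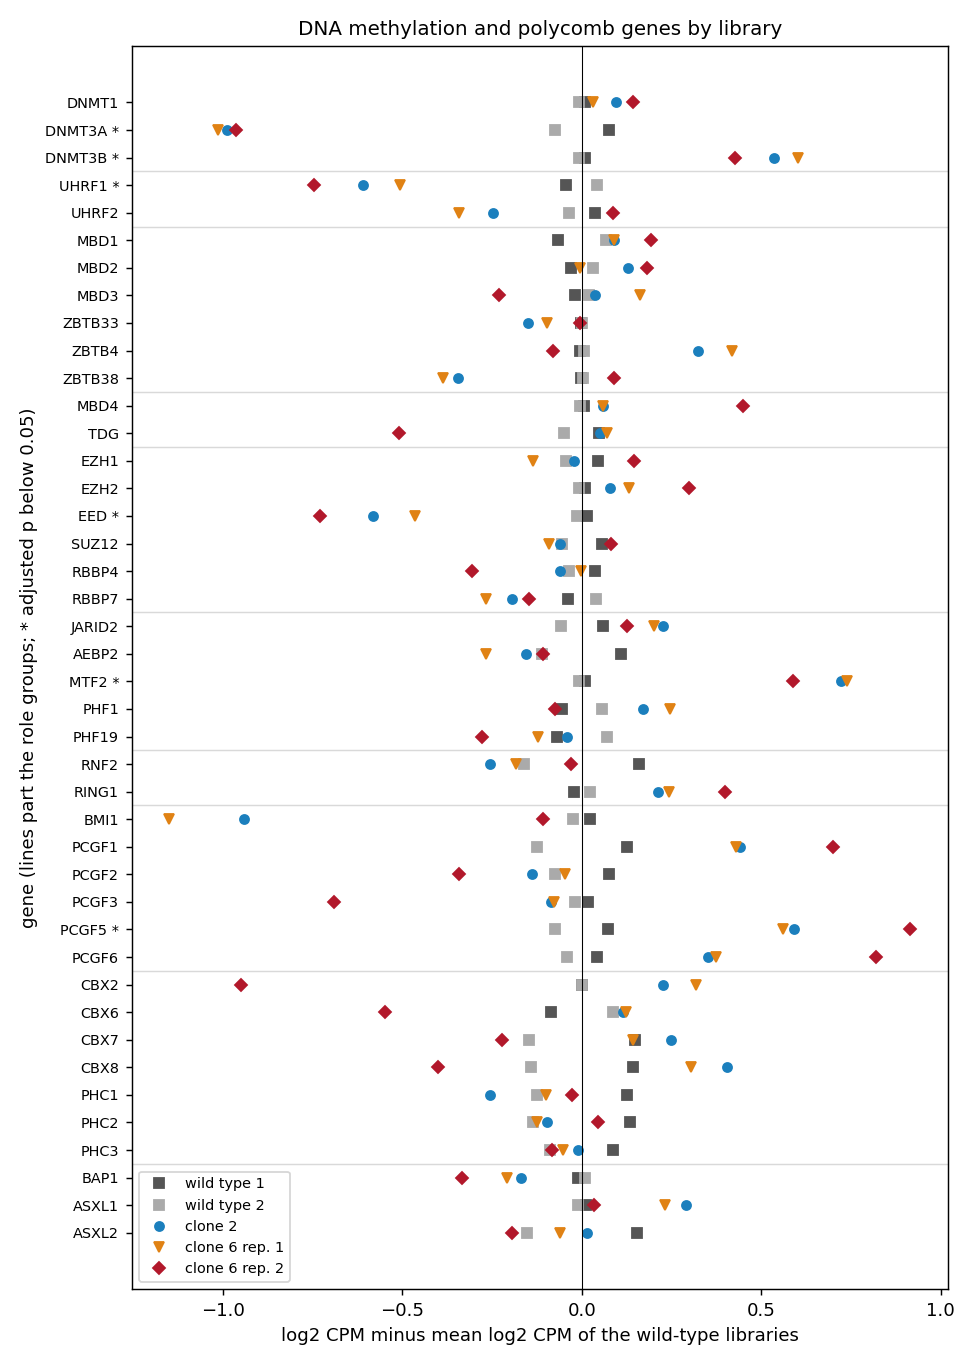
Log2 CPM of each of the 42 genes in each library minus the mean of the 2 wild-type libraries, with genes ordered by role. DNMT3A lies near -1 in all 3 edited libraries, MTF2 and PCGF5 lie above 0 in all of them, and clone 6 replicate 2 (red) departs from the other edited libraries for BMI1 and CBX2.

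The sequence just upstream of a transcription start listed by RefSeq is given for the 6 called genes, to show the promoter sequence listed for them. Each stretch of 150 bases is printed 5′ to 3′ on the gene's own strand in GRCh38.p14, from the most upstream start in the reference table of promoter windows. The positions are chr2:25342591-25342740 (minus strand) for DNMT3A, chr19:4909351-4909500 (plus) for UHRF1, chr11:86244603-86244752 (plus) for EED, chr20:32779702-32779851 (plus) for DNMT3B, chr1:93079133-93079282 (plus) for MTF2 and chr10:91162843-91162992 (plus) for PCGF5. The stretches of UHRF1, EED and DNMT3B lie wholly inside the gene's span in GENCODE 29, and that of MTF2 partly, since the first GENCODE start is further upstream. They flank internal starts there, and gene counts do not show which start the counted transcripts used. Capitals mark matches, on either strand, to the E2F site TTTNNCGC, the CCAAT box CCAAT and the GC box GGGCGG.
DNMT3A: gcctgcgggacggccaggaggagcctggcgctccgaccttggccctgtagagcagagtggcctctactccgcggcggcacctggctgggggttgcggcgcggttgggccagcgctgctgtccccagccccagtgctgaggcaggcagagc
UHRF1: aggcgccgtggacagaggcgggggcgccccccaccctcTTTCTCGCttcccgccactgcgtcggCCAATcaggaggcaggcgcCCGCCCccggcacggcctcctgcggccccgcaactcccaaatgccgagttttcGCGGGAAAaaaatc
EED: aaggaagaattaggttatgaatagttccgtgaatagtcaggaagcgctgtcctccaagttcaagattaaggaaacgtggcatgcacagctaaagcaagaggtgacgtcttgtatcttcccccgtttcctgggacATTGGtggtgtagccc
DNMT3B: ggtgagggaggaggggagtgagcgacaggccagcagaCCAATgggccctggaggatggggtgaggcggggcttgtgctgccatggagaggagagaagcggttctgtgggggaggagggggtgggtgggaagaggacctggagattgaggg
MTF2: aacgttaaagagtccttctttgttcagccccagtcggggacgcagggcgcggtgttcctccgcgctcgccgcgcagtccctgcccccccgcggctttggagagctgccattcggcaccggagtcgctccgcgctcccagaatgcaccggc
PCGF5: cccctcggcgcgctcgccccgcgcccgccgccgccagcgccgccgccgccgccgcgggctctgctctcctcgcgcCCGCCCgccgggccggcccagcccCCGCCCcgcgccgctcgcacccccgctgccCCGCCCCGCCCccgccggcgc

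The 6 stretches differ widely in CpG. That of PCGF5 holds 33 CpG and 4 GC boxes, some of them adjacent, whereas that of DNMT3B, at an internal start, holds 3 CpG and 1 CCAAT box. The UHRF1 stretch holds 17 CpG, 2 E2F sites, 1 CCAAT box and 1 GC box. MTF2 has 18 CpG, DNMT3A 11 and EED 5, and the stretches of DNMT3A and MTF2 hold none of the 3 motifs. Promoter windows of 300 bases were matched for 39 of the 42 genes, with a median of 30 CpG (range 1 to 52) against a median of 13 over all 27305 genes. The E2F site was found in 10 of the 39 windows (25.6%) and in 6.93% of all windows. Those 10 windows belong to DNMT1, UHRF1, EZH1, EZH2, SUZ12, RBBP7, AEBP2, MTF2, PHF19 and ZBTB4, of which 2, UHRF1 and MTF2, were called, in opposite directions. A CCAAT box was in 46.2% of the windows against 35.7% of all, and a GC box in 69.2% against 44.5%. These shares were not matched for CpG, which the E2F site and the GC box contain, nor for transcript level. The motifs were chosen after the calls had been seen, and a match is a description of letters, not a binding site.

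Among the DNA methyltransferases, the 2 de novo enzymes moved in opposite directions while the maintenance enzyme did not pass the test. DNMT3A (ENSG00000119772; GENCODE 29, GRCh38 chr2:25227855-25342590, minus strand) encodes a de novo methyltransferase and had 49.6 and 44.7 CPM in wild type, 23.7 in clone 2, and 23.3 and 24.1 in clone 6. The 3 edited libraries were close to each other and all lay far below both wild-type libraries. The mean went from 47.1 ± 3.46 (SD, n = 2) to 23.7 ± 0.404 CPM (SD, n = 3), which is -0.99 as a log2 fold change (SE 0.101, 95% interval -1.24 to -0.75, edgeR adjusted p = 0.00216). DNMT3A kept its call when any 1 library was left out, with adjusted p-values of 0.043 and 0.0238 when wild-type replicate 1 or 2 was absent.

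DNMT3B (ENSG00000088305; chr20:32762385-32809356, plus strand), the other de novo enzyme, had 28.5 and 28.1 CPM in wild type, 41.0 in clone 2, and 43.0 and 38.0 in clone 6. Every edited library was above both wild-type libraries. The log2 fold change was 0.52 (SE 0.104, edgeR adjusted p = 0.0183), from a mean of 28.3 ± 0.241 to 40.7 ± 2.50 CPM (SD). The log2 fold change stayed between 0.485 and 0.557 with any 1 library left out, but the call was lost without 4 of them. The adjusted p was 0.150 or 0.137 with either wild-type replicate left out (1 and 2), 0.072 with clone 2 left out and 0.0698 with clone 6 replicate 1 left out. PDRG1, COMMD7 and RALY, near DNMT3B on chromosome 20, were also called higher, and the part of a regional change was not tested. DNMT1 (ENSG00000130816), which copies methylation to the new strand, had 318 and 315 CPM in wild type, 338 in clone 2, and 323 and 349 in clone 6. The edited values all lay a little above the wild-type values. Its log2 fold change was 0.09 (95% interval -0.11 to 0.28, edgeR adjusted p = 0.487). DNMT3L, the catalytically inactive partner of the de novo enzymes, had 0 reads in every library.

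UHRF1 and UHRF2 bind hemimethylated DNA, and UHRF1 brings DNMT1 to it. UHRF1 (ENSG00000034063; chr19:4903080-4962154, plus strand) had 164 and 174 CPM in wild type, 111 in clone 2, and 119 and 101 in clone 6. All edited libraries lay below both wild-type libraries. The mean fell from 169 ± 7.06 to 110 ± 9.12 CPM (SD), a log2 fold change of -0.62 (SE 0.099, edgeR adjusted p = 0.00891), and the values were -0.66 and -0.58 (adjusted p = 0.0768 and 0.0897) without wild-type replicates 1 and 2. UHRF2 (ENSG00000147854) had 86.8 and 82.5 CPM in wild type, 71.2 in clone 2, and 66.7 and 89.8 in clone 6. Clone 6 replicate 2 was above the wild type and the other edited libraries were below it, so the genotypes overlapped (log2 fold change -0.16, edgeR adjusted p = 0.48). Without clone 6 replicate 2 the UHRF2 log2 fold change was -0.31 with an adjusted p of 0.00796.

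**Figure D2:**
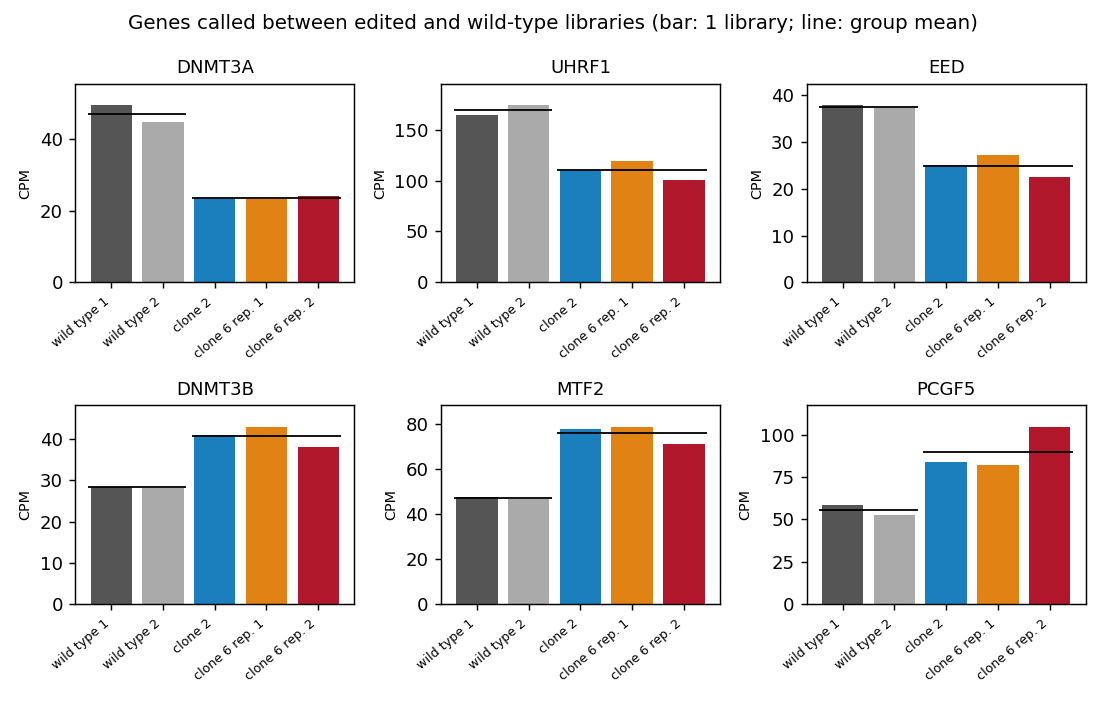
CPM of the 6 called genes, with 1 bar per library and a line at each genotype's mean. The wild-type and edited bars do not overlap for any of the 6, and DNMT3A falls from a mean of 47.1 to 23.7 CPM.

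PRC2 consists of a methyltransferase (EZH1 or EZH2), EED, SUZ12 and a histone chaperone (RBBP4 or RBBP7). Of these 6 core genes 1 fell, EED, and none rose. EED (ENSG00000074266; chr11:86244544-86278813, plus strand) encodes the subunit that binds trimethylated lysine 27 and stimulates the enzyme. It had 38.0 and 37.3 CPM in wild type, 25.1 in clone 2, and 27.3 and 22.6 in clone 6. Edited libraries were all lower than both wild-type libraries, by a log2 fold change of -0.59 (SE 0.117, edgeR adjusted p = 0.0178). Genes near EED on chromosome 11, among them SYTL2, PICALM, CTSC and NOX4, were also called lower. Whether a change of the region has a part was not tested. EED was at -0.58 and -0.60 (adjusted p = 0.150 and 0.117) without wild-type replicates 1 and 2, and at -0.59 (adjusted p = 0.0659) without clone 2.

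The catalytic subunits did not pass the test. EZH2 (ENSG00000106462) had 39.6 and 39.2 CPM in wild type, 41.6 in clone 2, and 43.1 and 48.5 in clone 6. Its edited values were all above the wild-type values, but the log2 fold change of 0.17 had a 95% interval from -0.08 to 0.43 (edgeR adjusted p = 0.301). EZH1 (ENSG00000108799) had 23.6 and 22.2 CPM in wild type, 22.5 in clone 2, and 20.8 and 25.3 in clone 6, with overlapping genotypes (95% interval of the log2 fold change -0.31 to 0.31). SUZ12 (ENSG00000178691), the scaffold subunit, had 108 and 99.5 CPM in wild type, 99.2 in clone 2, and 97.0 and 109 in clone 6. These values overlapped too (log2 fold change -0.02, edgeR adjusted p = 0.89). The SUZ12 pseudogene SUZ12P had 204 to 331 reads per library, and reads that the copies share make the SUZ12 value uncertain. RBBP7, with 385 and 407 CPM in wild type, 345 in clone 2, and 329 and 357 in clone 6, did not overlap between genotypes (log2 fold change -0.20, edgeR adjusted p = 0.143), and RBBP4 had a log2 fold change of -0.12.

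Accessory subunits steer PRC2 to chromatin and divide it into a form with MTF2, PHF1 or PHF19 and a form with JARID2 and AEBP2. Of these 5 genes 1 rose, MTF2, which encodes a Polycomb-like protein that binds unmethylated CpG-rich DNA. MTF2 (ENSG00000143033; chr1:93079235-93139081, plus strand) had 47.5 and 47.0 CPM in wild type, 78.0 in clone 2, and 79.0 and 71.1 in clone 6. The wild-type libraries were close to each other and every edited library lay well above them. The mean rose from 47.3 ± 0.350 to 76.0 ± 4.26 CPM (SD), a log2 fold change of 0.69 (SE 0.092, 95% interval 0.47 to 0.91, edgeR adjusted p = 0.00503). RPL5, CCDC18 and DR1, near MTF2 on chromosome 1, were also called higher. Whether a change of that region has a part was not tested. Without wild-type replicates 1 and 2 MTF2 was at 0.69 and 0.68 (adjusted p = 0.0694 and 0.0651). The other Polycomb-like genes PHF1 and PHF19 had log2 fold changes of 0.12 and -0.15, JARID2 of 0.18 and AEBP2 of -0.18, none of them called.

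In PRC1 a RING protein (RING1 or RNF2) carries the ubiquitin ligase activity and 1 of the PCGF proteins defines the complex. RNF2 (ENSG00000121481) had 31.2 and 24.97 CPM in wild type, 23.4 in clone 2, and 24.6 and 27.3 in clone 6, with overlapping genotypes (log2 fold change -0.16, edgeR adjusted p = 0.463). RING1 (ENSG00000204227) had 35.0 and 36.1 CPM in wild type, 41.2 in clone 2, and 42.1 and 46.9 in clone 6. The edited libraries were all higher for RING1, at a log2 fold change of 0.29 (95% interval 0.04 to 0.54, edgeR adjusted p = 0.105), short of a call.

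Of the 6 PCGF genes 1 rose, PCGF5, which belongs to a variant PRC1 without a CBX subunit. PCGF5 (ENSG00000180628; chr10:91163012-91284331, plus strand) had 58.4 and 52.7 CPM in wild type, 83.6 in clone 2, and 81.8 and 105 in clone 6. No edited library reached down to the wild-type range. The mean rose from 55.5 ± 4.02 to 90.1 ± 12.7 CPM (SD), a log2 fold change of 0.70 (SE 0.136, edgeR adjusted p = 0.0171), and PCGF5 was at 0.77 and 0.63 (adjusted p = 0.114 and 0.149) without wild-type replicates 1 and 2. HTR7, ANKRD1, EXOC6 and MYOF, near PCGF5 on chromosome 10, were also called higher, and the part of a regional change was not tested. PCGF1 and PCGF6, subunits of other variant complexes, were also higher in every edited library but were not called. PCGF1 went from a mean of 8.04 to 11.6 CPM (log2 fold change 0.53, edgeR adjusted p = 0.0722) and PCGF6 from 21.3 to 30.9 CPM (log2 fold change 0.53, edgeR adjusted p = 0.0787). Without clone 6 replicate 2 both were called, at edgeR adjusted p-values of 0.0456 and 0.016, and PCGF6 also without a filter on low counts (0.0153). PCGF3 and PCGF2 had log2 fold changes of -0.26 and -0.18, not called.

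BMI1 (ENSG00000168283), a PCGF subunit of canonical PRC1 and a repressor of the CDKN2A locus, had 23.0 and 22.3 CPM in wild type. Clone 2 had 11.7 CPM and clone 6 had 10.1 and 21.0 CPM. Clone 2 and clone 6 replicate 1 were far below the wild-type level and clone 6 replicate 2 was close to it. The log2 fold change was -0.66 (SE 0.298, 95% interval -1.37 to 0.06, edgeR adjusted p = 0.175), and -1.06 without clone 6 replicate 2 (edgeR adjusted p = 0.000129). Part of BMI1, 23.35% of its exon bases, overlaps the readthrough gene COMMD3-BMI1, which was listed with 0 reads in every library. CDKN2A had a log2 fold change of 0.04 (edgeR adjusted p = 0.786) and its neighbour CDKN2B one of 0.42 (edgeR adjusted p = 0.0335), both named after their values were seen.

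The CBX proteins bind trimethylated lysine 27 for canonical PRC1 and the PHC proteins oligomerise it. None of the 7 genes was called. CBX7 (ENSG00000100307) was the lowest of the 42 genes per length and had 4.63 and 3.75 CPM in wild type, 4.97 in clone 2, and 4.61 and 3.55 in clone 6. Its genotypes overlapped (log2 fold change 0.06, 95% interval -0.48 to 0.59). CBX8 had the largest absolute log2 fold change of the group, 0.13 (edgeR adjusted p = 0.753), with 14.6 and 11.96 CPM in wild type, 17.6 in clone 2, and 16.4 and 9.98 in clone 6. CBX2 and CBX6 had log2 fold changes of -0.04 and -0.07, and CBX2 was called without clone 6 replicate 2 with the opposite sign (0.26, edgeR adjusted p = 0.0432). The PHC genes had log2 fold changes of -0.13 (PHC1), -0.06 (PHC2) and -0.05 (PHC3).

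BAP1 removes ubiquitin from histone H2A together with an ASXL protein. BAP1 (ENSG00000163930) had 88.7 and 89.9 CPM in wild type, 79.4 in clone 2, and 77.3 and 70.8 in clone 6. It was lower in every edited library (log2 fold change -0.24, 95% interval -0.45 to -0.02) without passing the test (edgeR adjusted p = 0.116). ASXL1 had a log2 fold change of 0.19 (edgeR adjusted p = 0.243) and ASXL2 one of -0.09.

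None of the 6 genes for methyl-CpG binding proteins and the related MBD3 was called. The largest absolute log2 fold change among them was that of ZBTB4, 0.24 (edgeR adjusted p = 0.33), with 62.0 and 62.5 CPM in wild type, 78.0 in clone 2, and 83.2 and 58.9 in clone 6. ZBTB4 and ZBTB38, both zinc finger proteins that bind methylated CpG, were each near the wild-type level in clone 6 replicate 2 and away from it in the other edited libraries. Without that replicate both were called (log2 fold changes 0.36 and -0.38, edgeR adjusted p = 0.00309 and 0.000845). ZBTB38 had 441 and 443 CPM in wild type, 348 in clone 2, and 337 and 470 in clone 6 (edgeR adjusted p = 0.414). MBD1, MBD2, MBD3 and ZBTB33 had log2 fold changes between -0.08 and 0.12. MBD4 and TDG excise thymine or its derivatives opposite guanine, and TDG also removes the products of TET oxidation. TDG (ENSG00000139372) had 46.4 and 43.3 CPM in wild type, 46.4 in clone 2, and 47.1 and 31.4 in clone 6 (edgeR adjusted p = 0.722). Clone 6 replicate 2 was far below the other 4 libraries, which lay close together. MBD4 had 42.1 and 41.8 CPM in wild type, 43.7 in clone 2, and 43.7 and 57.3 in clone 6 (log2 fold change 0.20, edgeR adjusted p = 0.374).

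Counted without a test, the edited and wild-type libraries did not overlap for 20 of the 42 genes (47.6%), beside 52.7% of all genes tested. Of these, 12 were higher (28.6%, beside 26.9%) and 8 lower (19.0%, beside 25.8%). At an unadjusted p below 0.05 there were 11 genes (26.2%), beside 34.1%. Overlap of exons with other genes touched 14 of the 42, and 7 of them by more than 10% of their exon bases (PCGF2, BMI1, CBX7, PHC1, RBBP4, MBD3 and PHC3). No source used here says whether reads were counted by strand. Counting by strand would not part overlaps on the same strand, which are those of BMI1 and some of those of MBD3 and CBX7. The 7 values are uncertain for these reasons. Of the 6 called genes, EED shared 0.94% of its exon bases with another gene and the others 0.0%.

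Levels of different genes can be compared only per length, here as CPM per kilobase of merged GENCODE 29 exons. RBBP7 was highest in wild type (mean 53.6), followed by UHRF1 (32.9), DNMT1 (32.3), ZBTB38 (31.0) and CBX6 (30.1). In the edited libraries UHRF1 stood at 21.4 while DNMT1 stood at 34.4. EZH2 (8.71 in wild type, 9.82 in edited libraries) was above EZH1 (3.27 in both) throughout. DNMT3B (6.11) was above DNMT3A (3.92) in wild type, and in the edited libraries the means were 8.79 and 1.97. The wild-type order rests on the merged exon lengths, 4630 bases for DNMT3B and 12020 for DNMT3A. In reads DNMT3A was the higher in wild type (1072 and 811, against 615 and 510). The annotation that was counted is not stated and may give other lengths. EED (5.37 in wild type, 3.56 in edited libraries) was the lowest of the PRC2 core genes apart from EZH1.

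**Figure D3:**
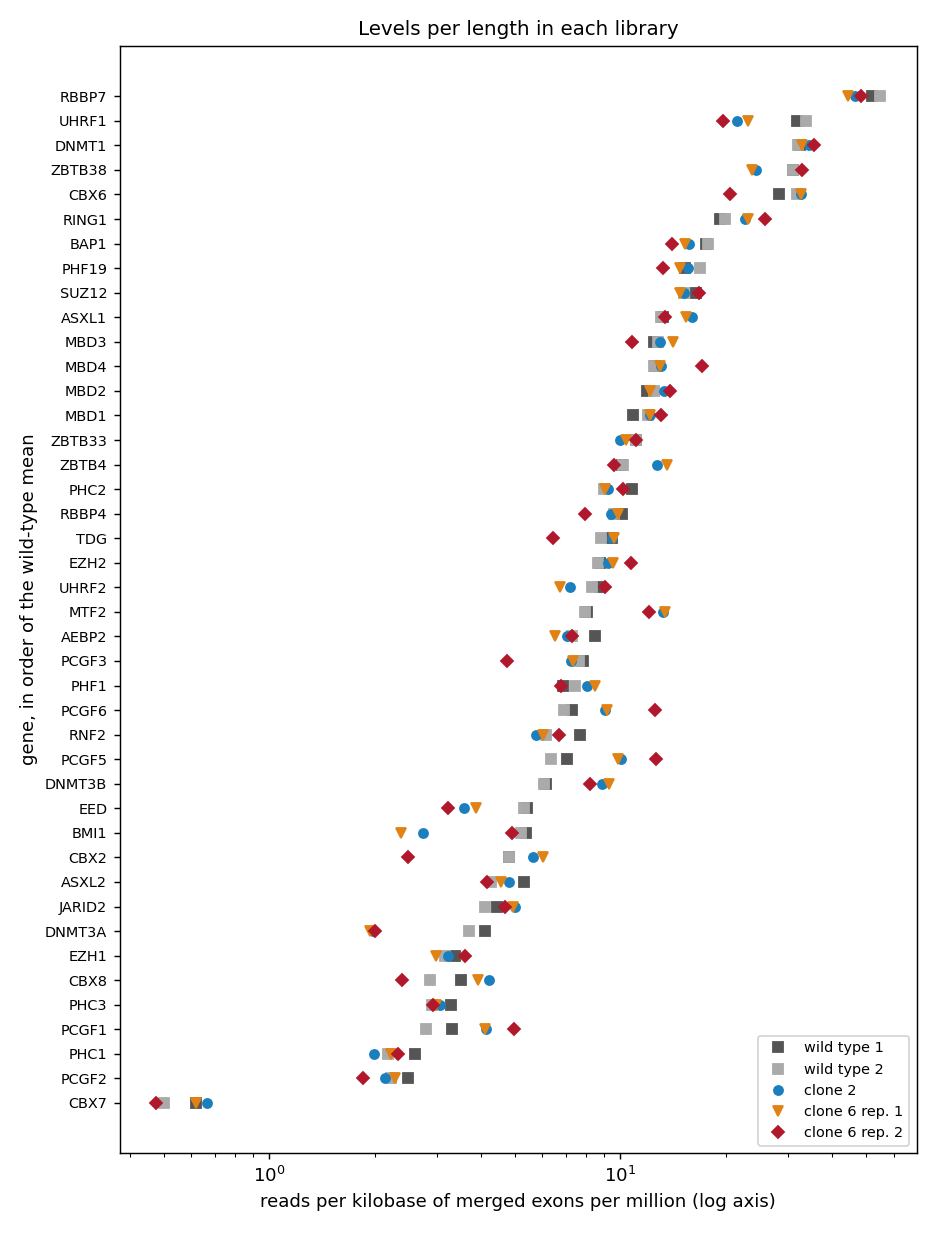
Level per length (CPM per kilobase of merged exons, log axis) of each gene in each library, ordered by the wild-type mean from 53.6 for RBBP7 down to 0.561 for CBX7. The spread between libraries is narrow beside the range between genes, and DNMT3A is lower in all 3 edited libraries.

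Ratios of reads within a library need no scaling between libraries and compare genes of like function. The DNMT3A to DNMT3B ratio was 1.74 and 1.59 in wild type, 0.577 in clone 2, and 0.541 and 0.633 in clone 6. The ratio is of reads, not of levels per length, and so bears on its change and not on which gene is the higher. It was lower in all edited libraries than in both wild-type libraries, a difference of -1.51 in the mean log2 ratio (exact permutation test, two-sided, p = 0.2, adjusted 0.4 over 10 pairs). With 10 arrangements of the libraries 0.2 is the smallest p this design allows. The genotypes did not overlap either for UHRF2 to UHRF1 (difference of the mean log2 ratio 0.45), RING1 to RNF2 (0.44), EZH1 to EZH2 (-0.17) and ASXL2 to ASXL1 (-0.27), each at the same exact p. BMI1 to PCGF2 overlapped, with log2 ratios of 1.41 and 1.51 in wild type, 0.65 in clone 2, and 0.34 and 1.70 in clone 6. The remaining 4 pairs overlapped as well, so 5 of the 10 pairs did not overlap. Single genes did not overlap for 52.7% of all genes tested, and no share was computed for pairs of other genes. DNMT3A and DNMT3B were each called in these same libraries, so their ratio is no separate support.

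**Figure D4:**
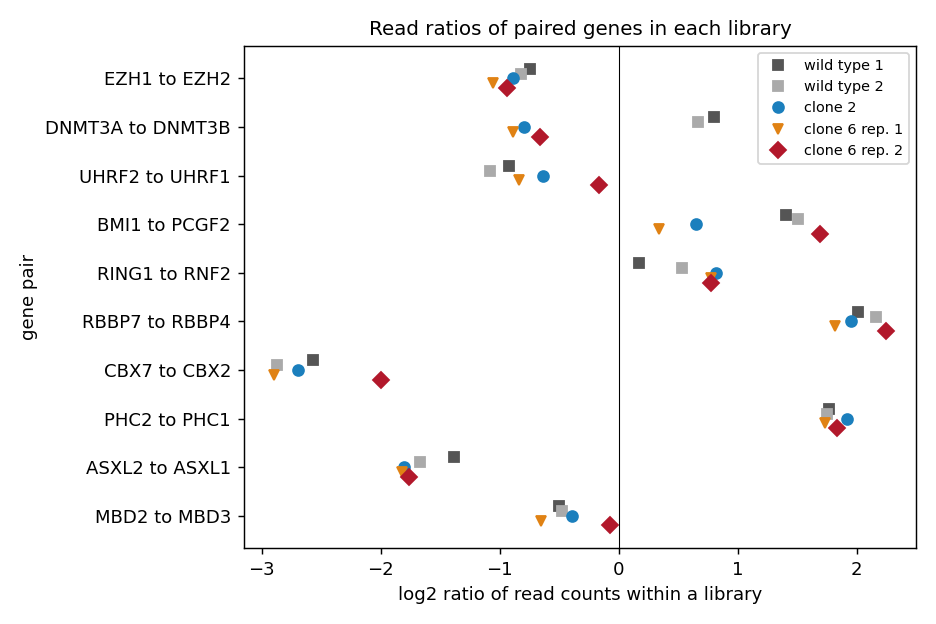
Log2 ratio of read counts within each library for 10 pairs of genes, with 1 point per library. For DNMT3A to DNMT3B the wild-type points lie at 0.80 and 0.67 and the edited points between -0.89 and -0.66, whereas the points of BMI1 to PCGF2 overlap.

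Each clone was also compared with the wild type on its own, in a fit with 3 groups whose comparisons share the wild-type libraries. In clone 2, which has a single library and is assumed to vary like the others, DNMT3A was called (1 of 42 genes, 2.38%, beside 4.03% of all genes), at a log2 fold change of -0.99 (SE 0.179, edgeR adjusted p = 0.0419). In clone 6, DNMT3A, UHRF1, MTF2 and PCGF5 were called (4 of 42, 9.52%, beside 9.49% of all genes). Their clone 6 log2 fold changes were -0.99, -0.62, 0.67 and 0.75, with edgeR adjusted p-values of 0.0135, 0.0403, 0.0275 and 0.0386. In clone 2 the values for UHRF1, MTF2 and PCGF5 were -0.61, 0.72 and 0.59, at edgeR adjusted p-values of 0.114, 0.0551 and 0.162. DNMT3B and EED were at 0.54 and -0.58 in clone 2 and at 0.52 and -0.60 in clone 6, not called in either. Without wild-type replicate 1, or without replicate 2, no gene of the 42 was called in either clone by edgeR, beside 1.09 to 2.50% of all genes. Without clone 6 replicate 1 the counts were 8 in clone 2 (19.0%, beside 20.8% of all genes) and 15 in clone 6 (35.7%, beside 34.0%). Without clone 6 replicate 2 they were 8 (19.0%, beside 23.0%) and 10 (23.8%, beside 22.8%). In these fits each clone is 1 library and the spread comes from the wild-type pair alone.

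The test of the difference between the clones called 0 of the 42 genes by edgeR, beside 0.0% of all genes, and 0 of them had an unadjusted p below 0.05, beside 0.626% of all genes. For DNMT3A the difference of clone 6 minus clone 2 was -0.001 on the log2 scale (SE 0.175), and for MTF2 -0.06 (SE 0.15). A p that misses the threshold does not show that the clones are alike: for BMI1 the difference was 0.41 with an SE of 0.414.

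Clone 6 replicate 2 stood apart from the other edited libraries for some PRC1 genes. The median absolute log2 difference over the 42 genes was 0.22 between the clone 6 replicates, against 0.08 between the wild-type replicates and 0.06 between clone 2 and clone 6 replicate 1. Over all tested genes these medians were 0.28, 0.14 and 0.10. CBX2 (ENSG00000173894) had 27.4 and 27.5 CPM in wild type, 32.1 in clone 2, and 34.2 and 14.2 in clone 6. CBX6 had 227 and 257 CPM in wild type, 262 in clone 2, and 263 and 165 in clone 6. PCGF3, a PCGF subunit of a variant PRC1, had 58.0 and 56.6 CPM in wild type, 53.9 in clone 2, and 54.3 and 35.4 in clone 6. For these 3 genes clone 6 replicate 2 was the lowest library and clone 6 replicate 1 lay close to clone 2.

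With clone 6 replicate 1 left out, clone 6 replicate 2 against clone 2 called 4 of the 42 genes (beside 5.76% of all genes), in a fit whose spread comes from the wild-type pair alone. They were CBX2 (log2 difference -1.19, edgeR adjusted p = 0.00696), CBX6 (-0.67, 0.0229), PCGF3 (-0.61, 0.036) and BMI1 (0.84, 0.0333). CBX8 (-0.82) and TDG (-0.57) had edgeR adjusted p-values of 0.07 and 0.0563. This contrast compares these libraries and not the clones. The 38 genes of a proliferation list had a median of -0.12 in clone 6 replicate 2 relative to the wild-type mean, and they were not uniform. Of these, MKI67 had 375 and 325 CPM in wild type, 309 in clone 2, and 317 and 154 in clone 6, so clone 6 replicate 2 was lowest, while CDC6 was highest there (326 CPM, against 146 to 232 CPM in the others). The summed fibroblast and pericyte markers were lowest there too. The part of these in the differences was not tested. Without clone 6 replicate 2 the genotype comparison called 16 of the 42 genes, beside 38.8% of all genes, with 8 higher (18.3% of all genes) and 8 lower (20.5% of all genes). The genes called in addition to the 6 were UHRF2, ZBTB4, ZBTB38, RBBP7, BMI1, PCGF1, PCGF6, CBX2, BAP1 and ASXL1.

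**Figure D5:**
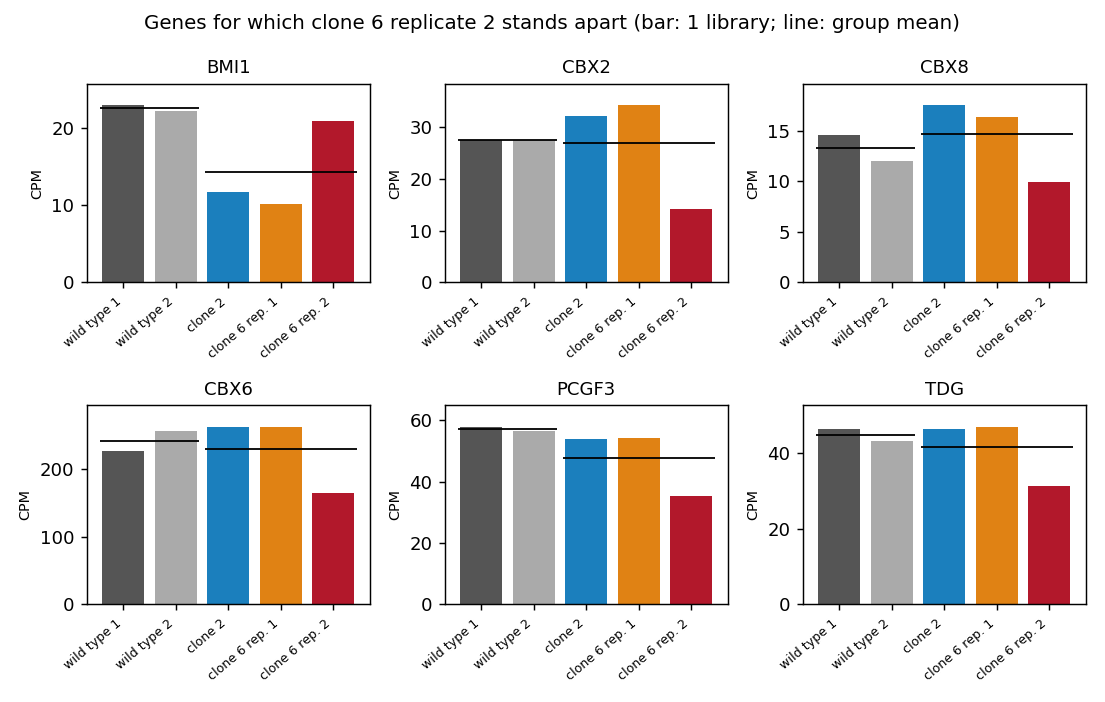
CPM of 6 genes for which clone 6 replicate 2 differs most from the other edited libraries, with 1 bar per library and a line at each genotype's mean; they were chosen after their values were seen. CBX2 stands at 14.2 CPM in clone 6 replicate 2 against 32.1 and 34.2 CPM in the other edited libraries, and BMI1 at 21.0 against 11.7 and 10.1 CPM.

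Genes that work with these 42 or oppose them were taken from lists that share no gene with them. The counts in these lists are to be read against the 8.27% of all genes that were called higher and the 10.2% called lower. Of 28 further PRC1 genes, 1 rose and 3 fell, with a median log2 fold change of 0.01. Among those whose average log2 CPM was 2 or more, the largest change was that of MGA, a scaffold of the PCGF6 complex, with 84.6 and 87.2 CPM in wild type, 36.9 in clone 2, and 41.8 and 41.0 in clone 6. MGA was lower in every edited library by 1.11 on the log2 scale (log2 fold change -1.11, SE 0.093, edgeR adjusted p = 0.00111) and was called in all 13 alternatives. Its partners E2F6 (0.44) and TFDP1 (-0.44), which bind E2F sites, were called at edgeR adjusted p-values of 0.0422 and 0.0408, and each lost its call in several alternatives (highest adjusted p 0.284 and 0.264). AUTS2, a subunit of variant PRC1 below that level, was the other gene that fell, with 79 and 56 reads in wild type, 4 in clone 2, and 3 and 2 in clone 6 (log2 fold change -4.01, SE 0.346, edgeR adjusted p = 0.00124). AUTS2 was named after its values were seen.

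Of 6 tested genes listed with the PRC2 cofactors 1 fell, NSD1 (log2 fold change -0.48, edgeR adjusted p = 0.0406, up to 0.225 in the alternatives). NSD1 encodes a lysine 36 methyltransferase and not a subunit of PRC2. Of 7 partners of BAP1 1 fell, MBD5 (-0.81, edgeR adjusted p = 0.0128; up to 0.108), and of 10 subunits of the NuRD deacetylase complex 1 fell, MTA2 (-0.38, edgeR adjusted p = 0.0299; up to 0.221). Among 23 tested partners in DNA methylation and demethylation, 1 rose and 3 fell. CDCA7, which brings the remodeller HELLS to DNA, fell by 0.51 on the log2 scale (edgeR adjusted p = 0.0108; up to 0.119), its relative CDCA7L rose by 0.55 (0.0476; up to 0.244) and the insulator protein gene CTCF fell by 0.35 (0.0408; up to 0.245). GADD45G, linked to DNA demethylation, was the other gene that fell, at an average log2 CPM below 2. The TET genes, named after their values were seen, had log2 fold changes of -0.74 (TET1, edgeR adjusted p = 0.182), -0.09 (TET2) and -0.24 (TET3). Of 12 tested genes for lysine 27 demethylases and trithorax proteins, which oppose polycomb, 2 fell and none rose (beside 10.2 and 8.27% of all genes). They were MEN1 (-0.72, edgeR adjusted p = 0.0121; up to 0.119) and the lysine 4 methyltransferase gene KMT2A (-0.61, edgeR adjusted p = 0.0283; up to 0.224). The demethylase genes KDM6A and KDM6B had log2 fold changes of 0.07 and 0.09. MEN1, KMT2A and MTA2 lie on the same chromosome arm as EED, where many other genes were called lower and a few higher. CUL4A and RASA3, near TFDP1, were called lower too. So were RPAP1 and MAPKBP1, near MGA, and TYW1 and POM121, near AUTS2. The part of such regional changes was not tested.

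Of 66 developmental regulators that are known polycomb targets, 36 were tested, of which 3 rose and 6 fell (beside 8.27 and 10.2% of all genes), and their median log2 fold change was 0.24 against 0.02 over all genes tested. By library the list medians were 0.24 (clone 2), 0.21 (clone 6 replicate 1) and -0.20 (clone 6 replicate 2). TBX3, a repressor of the CDKN2A locus, went down from 47.2 to 4.30 CPM (-3.46 on the log2 scale, SE 0.153, edgeR adjusted p = 0.000331) and GATA2 from 9.62 to 2.77 CPM (-1.80, edgeR adjusted p = 0.00273), both called in all 13 alternatives. FOXC2 rose from 5.13 to 12.7 CPM (1.31, edgeR adjusted p = 0.0129; up to 0.127), as did CDKN2B and the homeobox gene DLX5. The others of that list that fell were IRX1, SOX17, HAND2 and WT1, and these and DLX5 had an average log2 CPM below 2. Of 40 germline genes known to be silenced by promoter methylation, 25 had 0 reads in every library and 3 were tested. Of these 1 rose, PAGE1, which was below that level too. Of 38 proliferation genes, 1 rose, the replication licensing gene CDC6 (0.77, edgeR adjusted p = 0.0317; up to 0.222), and 1 fell, the DNA polymerase gene POLA1 (-0.40, edgeR adjusted p = 0.0241; up to 0.206). The median log2 fold change of the 38 was -0.02. UHRF1 is known to vary with the cell cycle, and the part of proliferation in its fall was not tested. Among the genes given here with a value outside the 42, MGA, AUTS2, TBX3, GATA2 and GJA1 kept their calls when any 1 library was left out, and the others called lost theirs when wild-type replicate 1 or replicate 2 was left out. MEN1 and FOXC2 lost theirs in those fits alone, MBD5 also without clone 6 replicate 1, CDC6 and CDCA7L also without clone 2, and the rest also without clone 2 and without clone 6 replicate 1.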

How the data were processed

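Libraries from total RNA of the 5 samples were run on an Illumina HiSeq, per the labels' protocols. Each deposited file holds raw read counts for 1 library, as whole numbers beside Ensembl identifiers and symbols. The submitters' processing notes list Trimmomatic, STAR and HTSeq with no version, and the build hg19 (GRCh37). Which annotation was counted, and whether by strand, is not stated in those sources. Of 63677 genes listed, 5772 had no value and were left out. Entries that name no gene numbered 0. Libraries held 13572114 to 21881726 reads.

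Tests were run in R 4.3.3 by edgeR 4.0.16 (scaling by TMM, filterByExpr by genotype, quasi-likelihood F test), with 3 residual degrees of freedom for the genotype and 2 for the fit with 3 groups. Intervals are 95% and cover the fitted spread only. The log2 CPM in the plot by library used a prior count of 2. DESeq2 1.42.0, other scalings and filters, each library left out, a replicate block, clone 2 and clone 6 replicate 1 summed, and the ribosomal RNA share (0.417 to 9.79% of reads) as a covariate were alternatives. In data simulated at the wild-type means and these depths, the genotype fit tested 15353 genes. It found 20.9% of the genes given a 1.5-fold change, 79.1% at 2-fold and 93.9% at 4-fold. Of its calls 3.7% were unchanged genes. Only 67, 67 and 66 genes were given these changes, against 2857 genes called in the real data. No simulated library stood apart as clone 6 replicate 2 did. The shares therefore do not give the power or error of the real calls.

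Where a symbol had several identifiers, the one with most reads was used. Positions and exon lengths come from GENCODE 29 (GRCh38), joined by identifier, or by symbol for 2 genes (UHRF1 and PCGF2), and promoter windows from RefSeq (GRCh38.p14). None was used with hg19 coordinates. The genes and lists were chosen with earlier results of these data known, so their counts are descriptions. Values in every library are given for called genes, for the largest change in each role and for a fixed set of core genes (DNMT1, EZH1, EZH2, SUZ12, BMI1, RNF2, CBX7 and TDG among them). Outside the 42, up to 3 called genes per list are named by rule, those with the largest change at an average log2 CPM of at least 2. Other genes of the lists, some below that level, are named in addition.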

Additional observations from a re-analysis of the deposited data

How the results depend on the processing

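The number of the 42 genes called between edited and wild-type libraries was 6, and 1 to 16 when each library was left out in turn (1 without wild-type replicate 1 or 2, DNMT3A in both; 16 without clone 6 replicate 2). It was 5 to 8 in the other alternatives, with 7 under the replicate block, which added PCGF6 (adjusted p = 0.0327), and 5 with clone 2 and clone 6 replicate 1 summed. Over all genes the count was 2857, with 500 to 5919 when each library was left out, 4436 under the replicate block and 1520 with the summed libraries. DESeq2 called the same 6 genes. The counts ran from 0 to 8 for clone 2 against wild type, from 0 to 15 for clone 6 against wild type and from 0 to 4 for clone 6 against clone 2 when each library was left out. With the replicate block, clone 6 against wild type gave 5, against 4 without it on the same 4 libraries, an alternative chosen after seeing the data. Replicate numbers did not establish a pairing: the wild-type and clone 6 replicate differences correlated at 0.196 across genes, over only 2 pairs. DNMT3A kept its call in all 13 alternatives (log2 fold change -1.07 to -0.92). DNMT3B was lost with the summed libraries (adjusted p = 0.0745). No called gene changed sign, and 13 others did, counting PHC1, which reached only 0.0 without wild-type replicate 1. EZH1 was at -0.003 with upper-quartile scaling, -0.017 with no filter, -0.002 with a filter of 1 CPM, -0.01 without ribosomal RNA genes, -0.019 with the ribosomal RNA covariate and -0.009 by DESeq2. MBD3 was at 0.015 with that covariate and CBX7 at -0.004 with the summed libraries. Leaving out each library, log2 fold changes ran from -0.23 to 0.074 for ASXL2, -0.24 to 0.26 for CBX2, -0.18 to 0.11 for CBX6, -0.082 to 0.22 for CBX7, -0.02 to 0.34 for CBX8, -0.091 to 0.066 for EZH1 and -0.09 to 0.086 for MBD3. They ran from -0.25 to 0.0 for PHC1, -0.19 to 0.079 for PHC2, -0.14 to 0.04 for PHC3, -0.31 to 0.007 for RNF2, -0.09 to 0.034 for SUZ12 and -0.20 to 0.046 for TDG. CBX2 was called, at 0.26 (adjusted p = 0.0432), without clone 6 replicate 2. The cause of these changes was not tested. Depth limits CBX7 most, with 57 to 100 reads per library.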
